A study of Mus musculus with 14 samples.

Results

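The 34 genes described here encode the adhesion machinery of blood cells: 16 integrin alpha subunits, 8 integrin beta subunits, 5 counter-receptors and selectin ligands, 3 surface partners and 2 cytoplasmic activators. They were chosen by gene symbol, from a fixed list. No measured value entered the rule, but the list was chosen with earlier results of these data known. All 34 are among the 55367 gene symbols of each count table. Messenger RNA was sequenced from mouse lineage-negative (Lin-) bone marrow cells, primary cells depleted of mature blood lineages, of wild-type genotype. All cells were grown with SCF, IL6 and IL3, cytokines that support early and myeloid growth, and all carried a lentiviral pSMAL vector.

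In the first experiment 3 libraries came from cells transduced with luciferase, the control, and 3 from cells transduced with SETBP1-D868N, a mutant form of a nuclear protein that is altered in myeloid leukaemia. In the second experiment every culture carried SETBP1-D868N, with 4 libraries from cells given DMSO, the solvent, and 4 from cells given PF-9363 at 2.5 µM, both for 4 days. PF-9363 inhibits acetyltransferases of the MYST family, which modify histones. The first comparison asks what the mutant does to transcription and the second what MYST inhibition does in cells that carry it. The sources used here do not give the promoter of the vector, the number of animals or whether replicates are separate cultures, so p-values measure the spread between these libraries only.

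The first experiment had library totals of 60147266 to 68730322 counts. Those of the second, at 7083731 to 10359093 counts, were lower, and its RNA input and library preparation also differed. No test was made between experiments. The count assigned to mouse Setbp1 was 5 to 6 with luciferase, 20 to 24 with SETBP1-D868N, 0 to 2 with DMSO and 0 in all PF-9363 libraries. The sources used here do not give the species of the transduced sequence, so this count does not check the labels of the second experiment. The progenitor gene Kit stood at 177 to 183 CPM with luciferase, 112 to 118 CPM with SETBP1-D868N, 63.0 to 77.2 CPM with DMSO and 169 to 207 CPM with PF-9363. Of 12 progenitor markers, 6 were higher and 5 lower with the mutant (1061 to 1091 CPM, then 1264 to 1311 CPM in sum), and 5 higher and 4 lower with PF-9363 (582 to 603 CPM, then 650 to 707 CPM). Marker counts, here and below, are to be read against all genes tested. Of these, 24.5% were higher and 22.7% lower with the mutant, and 36.6% and 39.4% with PF-9363. The progenitor counts with PF-9363 were near these shares. B cell markers summed to 4.99 to 5.36 CPM with luciferase, 5.20 to 5.70 CPM with the mutant, 11.3 to 15.7 CPM with DMSO and 1.71 to 3.61 CPM with PF-9363, where 2 of 2 tested were lower. Markers of T and NK cells summed to 59.6 to 63.6, 81.0 to 87.1, 53.8 to 64.9 and 12.4 to 13.5 CPM in the same order, with 2 higher and 1 lower of 4 tested with the mutant and 2 lower of 3 tested with PF-9363. The B cell gene Ms4a1 and the T cell gene Cd3e were among those with 0 counts in every library of the second experiment. In the deeper first experiment no gene of either list was at 0 in all libraries of a group. Genes of mature myeloid cells were abundant, however, with Lyz2, the lysozyme of macrophages and granulocytes, at 1629 to 1788 CPM with luciferase and 1210 to 1375 CPM with DMSO. Here CPM is the count scaled to a library of 1e+06 counts over the tested genes after TMM scaling, which offsets differences in library composition.

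Integrins are pairs of an alpha and a beta subunit that hold cells to matrix and to other cells. The alpha subunit largely sets the ligand, and the beta subunit sets which alphas can reach the surface together with it. Talin and kindlin bind the beta tail inside the cell and switch the pair to a state of high affinity, and PSGL-1, the main selectin ligand of leukocytes, starts the rolling that precedes firm adhesion. In bone marrow these genes are known for retaining progenitors in their niche and for the exit of mature leukocytes.

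More adhesion genes fell than rose with SETBP1-D868N, and most rose with PF-9363. Vcam1 moved against most of the rest both times, with the largest rise in the first comparison and the largest fall in the second among the members. In the first comparison, 32 members had enough counts to be tested (Itgad and Itgb6 did not), and 19 of the 32 (59.4%) were called at an adjusted p under 0.05 by edgeR's quasi-likelihood test, against 47.2% of all 15794 genes tested. The groups did not overlap for 19 members, against 56.7% of all genes. Of the members called, 16 were lower (50.0% of those tested, against 22.7% of all genes) and 3 were higher (9.4%, against 24.5%), and the median log2 fold change was -0.23, against 0.0043 for all genes tested. The changes were small: Vcam1 was at least 2-fold higher, against 1.34% of all genes, and Itgae and Itgb8 were at least 2-fold lower, against 2.48%, so that 3 of 32 passed 2-fold in either direction, against 3.82%. In the second comparison, 28 members were tested (Itga3, Itga7, Itga8, Itgad, Itgb6 and Itgb8 were not), and 25 were called (89.3%, against 76.0% of all 13456 genes tested). The groups did not overlap for 24 of the 28 (85.7%, against 70.3%). Of those called, 21 were higher (75.0% of those tested, against 36.6%), 13 of them by at least 2-fold (46.4%, against 15.8%). The other 4 were lower (14.3%, against 39.4%), 2 of them by at least 2-fold (7.1%, against 18.1%), so that 15 of 28 passed 2-fold in either direction, against 33.9% of all genes. The median log2 fold change was 0.86, against -0.038 for all genes tested. The shares of both comparisons describe a list chosen with earlier results of these data known, and were not tested. Scaling by library size alone moved all log2 fold changes by 0.049 in the first comparison and by -0.23 in the second. It changed the members called to 3 higher and 14 lower, and to 19 higher and 6 lower. Over all genes, it moved the share of calls that were higher from 51.9% to 62.1% in the first comparison and from 48.1% to 36.2% in the second. These libraries are bulk RNA, in which fewer cells of a type and less RNA per cell cannot be told apart.

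**Figure D1:**
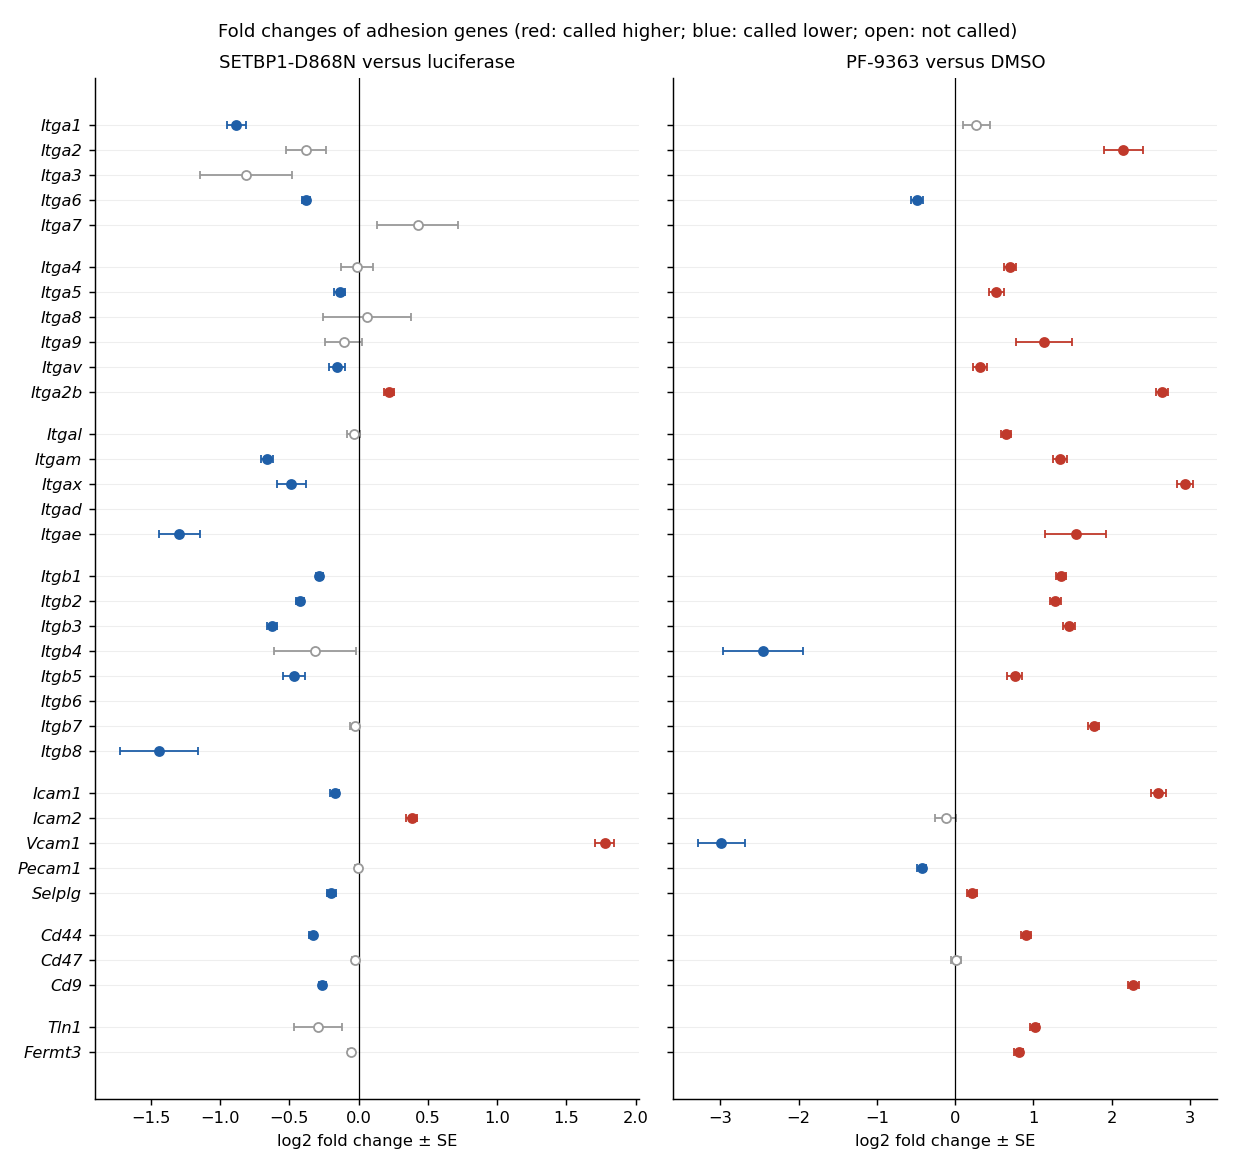
Log2 fold changes of the tested adhesion genes, grouped by role, in SETBP1-D868N versus luciferase and PF-9363 versus DMSO; bars are standard errors and filled points are genes called at an adjusted p under 0.05. Most points of the first comparison lie just below 0 and most of the second above it, and Vcam1 does the reverse, at 1.78 and -2.99.

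Markers of several myeloid cell types moved in the direction of most members. Those of mast cells and basophils were split with the mutant, with more lower than higher (median log2 fold change -0.61) but a higher sum. Eosinophil markers were split with the mutant and mostly lower with PF-9363, against most members. Of 12 monocyte and macrophage markers, 11 were lower with SETBP1-D868N and none was higher, and their summed level was 2866 to 3025 CPM with luciferase and 1847 to 2055 CPM with the mutant. With PF-9363, 11 of the 12 were higher and 1 was lower, and the sum went from 2432 to 2656 CPM in DMSO libraries to 9428 to 11228 CPM. Neutrophil markers were lower in 12 of 12 cases with SETBP1-D868N (22418 to 23311 CPM, then 12213 to 14810 CPM) and, with PF-9363, higher in 7 and lower in 1 of 12 (14662 to 17857 CPM, then 20008 to 21783 CPM). Mast cell and basophil markers were higher in 4 and lower in 6 of 10 with the mutant (5280 to 5484 CPM, then 5687 to 5807 CPM), and with PF-9363 higher in 9 of 10 and lower in none (1195 to 1538 CPM, then 4590 to 5546 CPM). Dendritic cell markers were lower in 7 of 9 tested with the mutant (1633 to 1724 CPM, then 810 to 961 CPM), and higher in 3 of 5 tested with PF-9363 (152 to 176 CPM, then 712 to 911 CPM). Eosinophil markers were higher in 1 and lower in 1 of 5 with the mutant (638 to 688 CPM, then 515 to 642 CPM), and with PF-9363 higher in 1 and lower in 3 of 4 tested (552 to 716 CPM, then 242 to 338 CPM). No gene of the mast cell list was at 0 in all libraries of an experiment, nor any of the monocyte, neutrophil and dendritic lists. The part of these cell types in the adhesion results was not tested.

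Upstream sequence is shown for genes at least 2-fold higher with PF-9363, as the DNA beside the start sites of members that moved together, where the 250 bases held no annotated exon. RefSeq promoters (GRCm38.p6) matched 22 of the 34 members, in 25 windows, and 4 windows met this rule. They run 5′ to 3′ on the gene's strand up to the base before the start, with matches to the searched motifs in capitals. These are Itgam (chr7:128062390-128062639, plus strand), Itgb1 (chr8:128685404-128685653, plus strand), Icam1 (chr9:21015690-21015939, plus strand) and Itga2 (chr13:114932101-114932350, minus strand).
Itgam: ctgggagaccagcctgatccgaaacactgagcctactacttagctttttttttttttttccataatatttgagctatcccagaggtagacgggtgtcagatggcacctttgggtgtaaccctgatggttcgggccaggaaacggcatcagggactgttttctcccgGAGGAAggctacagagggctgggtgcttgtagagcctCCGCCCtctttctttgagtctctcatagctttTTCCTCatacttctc
Itgb1: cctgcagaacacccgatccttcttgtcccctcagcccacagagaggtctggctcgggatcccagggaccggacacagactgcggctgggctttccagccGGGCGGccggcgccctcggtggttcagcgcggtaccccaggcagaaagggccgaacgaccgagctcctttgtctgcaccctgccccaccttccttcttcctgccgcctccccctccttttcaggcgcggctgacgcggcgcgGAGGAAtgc
Icam1: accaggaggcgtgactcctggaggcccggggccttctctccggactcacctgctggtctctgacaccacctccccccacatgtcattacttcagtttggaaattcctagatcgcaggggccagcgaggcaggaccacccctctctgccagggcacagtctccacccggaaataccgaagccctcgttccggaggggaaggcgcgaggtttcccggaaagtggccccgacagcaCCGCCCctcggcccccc
Itga2: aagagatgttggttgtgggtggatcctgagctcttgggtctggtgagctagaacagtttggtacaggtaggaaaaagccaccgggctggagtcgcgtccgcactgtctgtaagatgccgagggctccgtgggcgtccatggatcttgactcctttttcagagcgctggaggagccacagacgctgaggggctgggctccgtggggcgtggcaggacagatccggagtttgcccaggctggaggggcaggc

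Both strands of all windows were searched for 6 short strings that share no position with each other in the windows shown. GAGGAA is bound by ETS factors such as PU.1. AGATAA is bound by GATA factors, and TGTGGT by RUNX factors. TGANTCA is the site of AP-1. CACGTG is the E-box of MYC and its relatives, and GGGCGG is the GC box of SP1. Itgam, which encodes the CD11b chain of myeloid cells, held GAGGAA 84 to 79 bases and again, on the opposite strand, 15 to 10 bases before its start, and a GC box between them at 47 to 42 bases. Itgb1 held GAGGAA 9 to 4 bases and a GC box 151 to 146 bases before its start. Icam1 held a GC box 17 to 12 bases before its RefSeq start, which lies upstream of the GENCODE start given for the gene further on, and the Itga2 window held none of the 6 strings. Over all member windows GAGGAA was found in 9 of 25, against 23.25% of all 32851 promoter windows of the same length, and the GC box in 11 of 25, against 32.74%. Itga3, Itgb6 and Cd47 each had more than 1 window. The GC box count includes both windows of Itga3 and both overlapping windows of Cd47, so it counts windows and not genes. The other strings were found in 3 windows (TGTGGT, against 14.05%), 2 (AGATAA, against 9.99%), 1 (TGANTCA, against 6.75%) and none (CACGTG, against 6.02%). A match describes the letters only.

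The leukocyte alpha subunits pair with beta2 or, for alphaE, with beta7. Itgam, Itgax (CD11c, a marker of dendritic cells and macrophages) and Itgae (CD103, the receptor for epithelial E-cadherin) fell with SETBP1-D868N and rose with PF-9363, while Itgal (CD11a, the alpha chain of LFA-1) was called only with PF-9363. Itgam lies at chr7:128062640-128118491 and Itgax at chr7:128129547-128150657, 11055 bases apart on the plus strand with no protein-coding gene between them. Itgal lies at chr7:127296260-127335138, 727501 bases before Itgam, with 38 protein-coding genes between.

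Itgam measured 200, 193 and 184 CPM in the luciferase libraries and 122, 128 and 115 CPM with SETBP1-D868N, a log2 fold change of -0.66 (SE 0.044, adjusted p = 1.44e-06). Every mutant library was below every luciferase library. In the second experiment it measured 198, 201, 208 and 271 CPM with DMSO and 517, 538, 605 and 562 CPM with PF-9363, a log2 fold change of 1.34 (SE 0.088, adjusted p = 2.66e-10). DMSO replicate 4 stood above the other DMSO libraries but well below all PF-9363 libraries, and without it the log2 fold change was 1.45.

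Itgax measured 87.9, 76.4 and 74.2 CPM with luciferase and 50.7, 62.7 and 57.2 CPM with the mutant, a log2 fold change of -0.48 (SE 0.11, adjusted p = 0.0157). The groups did not overlap, but the call was lost without mutant replicate 3 (adjusted p = 0.0686). With DMSO it measured 13.4, 17.8, 15.0 and 18.0 CPM and with PF-9363 117, 111, 144 and 121 CPM, a 7.67-fold rise (log2 fold change 2.94, SE 0.098, adjusted p = 1.49e-19). This was the largest rise among the 28 members tested.

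Itgae was scarce throughout. It measured 2.28, 2.10 and 2.29 CPM with luciferase and 1.05, 0.780 and 0.889 CPM with the mutant, a 2.45-fold fall (log2 fold change -1.29, SE 0.15, adjusted p = 2.02e-05). The DMSO libraries held 1.09, 1.10, 0.749 and 0.817 CPM and the PF-9363 libraries 1.55, 4.51, 1.40 and 3.47 CPM, a 2.91-fold rise (log2 fold change 1.54, SE 0.39, adjusted p = 7.50e-04). The groups did not overlap, although the PF-9363 libraries differed among themselves by more than they differed, at their lowest, from DMSO. Itgal was 245 ± 15 CPM (SD, n = 3) with luciferase and 240 ± 11 CPM (n = 3) with the mutant, without a call. It rose with PF-9363 from 159 ± 11 to 250 ± 18 CPM (n = 4 each; log2 fold change 0.65, adjusted p = 6.38e-10). Itgad, the remaining alpha partner of beta2, was too scarce to test, with 6 to 12 counts in the libraries of the first experiment and 2 to 10 counts in those of the second.

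Shares within each library, computed per kilobase of exon so that genes of different length can be set side by side, do not depend on the scaling between libraries. Of the summed level per kilobase of Itgal, Itgam, Itgax and Itgad, Itgal made up 40.5 ± 0.34% with luciferase and 50.2 ± 1.90% with SETBP1-D868N (SD, n = 3 each). Itgam made up 41.6 ± 0.86% and 33.4 ± 1.86%, and Itgax 17.9 ± 0.64% and 16.3 ± 1.12%. For Itgal and Itgam the groups did not overlap, and for Itgax they did not overlap by a narrow margin (17.5% the lowest with luciferase, 17.4% the highest with the mutant). With DMSO and PF-9363 the shares were 34.2 ± 3.89% and 21.9 ± 2.29% for Itgal (n = 4 each), 60.9 ± 3.95% and 63.4 ± 1.71% for Itgam, and 4.67 ± 0.49% and 14.7 ± 1.01% for Itgax. The groups overlapped for Itgam. So the mix of beta2 partners held more Itgal and less Itgam with the mutant, and less Itgal and more Itgax with PF-9363. No test was run on these shares, which were chosen after the data were seen.

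**Figure D2:**
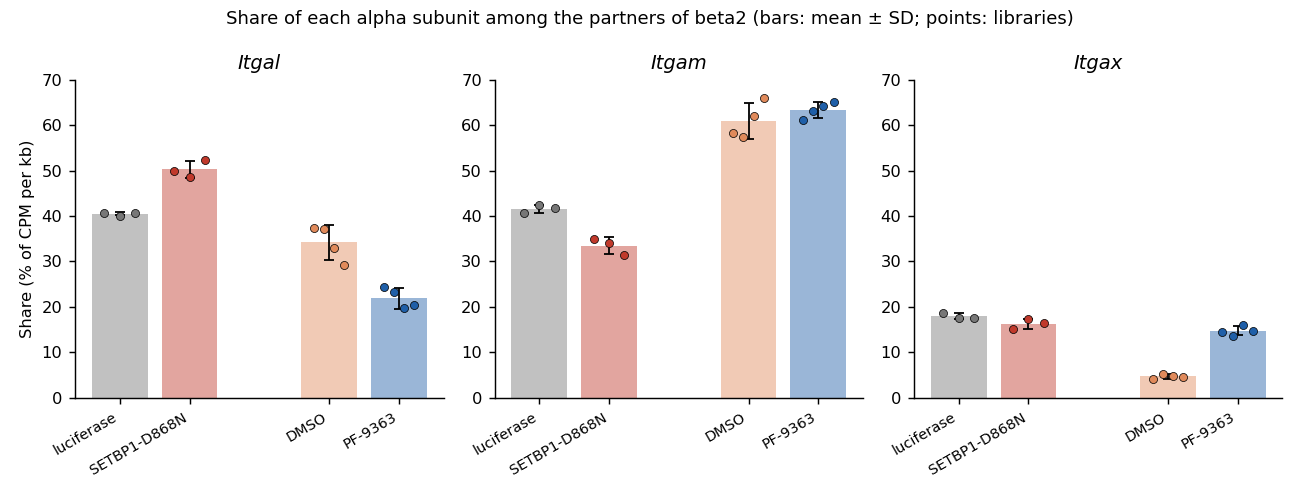
Share of each alpha subunit in the summed level per kilobase of the beta2 partners Itgal, Itgam, Itgax and Itgad, in percent, in the 4 groups; bars are means, error bars SDs and points single libraries. Itgal goes from 40.5% to 50.2% between luciferase and SETBP1-D868N and from 34.2% to 21.9% between DMSO and PF-9363.

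Among the beta subunits, 5 of the 7 tested fell with SETBP1-D868N (Itgb1, Itgb2, Itgb3, Itgb5, Itgb8), against 22.7% of all genes, and none rose, against 24.5%. With PF-9363, 5 of the 6 tested rose (Itgb1, Itgb2, Itgb3, Itgb5, Itgb7), against 36.6% of all genes, and Itgb4 fell, against 39.4%. Itgb2, the CD18 chain shared by all leukocyte beta2 integrins, was the most abundant member per kilobase in each of the 4 groups, at mean levels of 274, 204, 207 and 504 CPM per kilobase with luciferase, SETBP1-D868N, DMSO and PF-9363. As CPM it measured 842, 834 and 832 with luciferase and 619, 649 and 601 with the mutant, a log2 fold change of -0.42 (SE 0.029, adjusted p = 3.39e-07). It measured 616, 658, 574 and 677 CPM with DMSO and 1455, 1478, 1584 and 1633 CPM with PF-9363, a 2.43-fold rise (log2 fold change 1.28, SE 0.065, adjusted p = 1.08e-16). The beta2 chain thus changed in the direction of its partners Itgam and Itgax in both comparisons.

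Itgb1, the beta chain with the widest range of alpha partners, measured 403, 396 and 404 CPM with luciferase and 321, 329 and 338 CPM with the mutant (log2 fold change -0.28, SE 0.026, adjusted p = 3.13e-06). It measured 335, 312, 317 and 368 CPM with DMSO and 808, 780, 929 and 887 CPM with PF-9363, a 2.56-fold rise (adjusted p = 8.69e-17). Neither pair of groups overlapped. Itgb7, which pairs with alpha4 and alphaE for homing to the gut, was 193 ± 0.56 CPM with luciferase and 189 ± 7.1 CPM with the mutant, without a call. It measured 57.1, 56.6, 54.1 and 61.0 CPM with DMSO and 183, 191, 209 and 199 CPM with PF-9363, a 3.41-fold rise (log2 fold change 1.77, SE 0.067, adjusted p = 1.37e-19). The ratio of Itgb7 to Itgb1 per kilobase was 0.708 ± 0.0056 with luciferase and 0.845 ± 0.020 with the mutant (SD, n = 3). It was 0.254 ± 0.0099 with DMSO and 0.339 ± 0.015 with PF-9363 (n = 4), and thus higher in every mutant and every PF-9363 library than in the respective controls. No test was run on this ratio or on those given below. Other pairs of subunits were also computed, and not all separated the groups. The ratio of Itga4 to Itga5 overlapped in both experiments.

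Itgb3, the beta chain of the platelet fibrinogen receptor and of the vitronectin receptor, measured 297, 291 and 292 CPM with luciferase and 183, 185 and 203 CPM with the mutant. That was a log2 fold change of -0.62 (SE 0.037, adjusted p = 2.75e-07), with the groups far apart. It measured 205, 204, 194 and 249 CPM with DMSO and 630, 567, 611 and 535 CPM with PF-9363, a 2.75-fold rise (log2 fold change 1.46, SE 0.074, adjusted p = 2.88e-15). Itgb5, which pairs with alphav, stood at 13.8 ± 0.93 CPM with luciferase (n = 3) and was lower with the mutant (log2 fold change -0.47, adjusted p = 5.93e-04). It rose from 34.3 ± 4.0 to 58.2 ± 5.5 CPM with PF-9363 (n = 4 each; adjusted p = 2.10e-08).

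The 3 remaining beta chains were near the limit of counting. Itgb8, an activator of latent TGF-beta, measured 0.491, 0.507 and 0.455 CPM with luciferase (27 to 33 counts) and 0.137, 0.214 and 0.181 CPM with the mutant (9 to 14 counts), a 2.72-fold fall (log2 fold change -1.44, SE 0.28, adjusted p = 0.00113). It had 0 to 1 count per DMSO library and 1 to 5 counts per PF-9363 library and was not tested there. Itgb4, the partner of alpha6 in epithelial hemidesmosomes, measured 2.18, 1.70, 1.97 and 1.72 CPM with DMSO and 0.103, 0, 0.778 and 0.542 CPM with PF-9363 (0 to 5 counts). Its log2 fold change was -2.45 (SE 0.51, adjusted p = 9.89e-05). Itgb6 had 0 counts in every library of the second experiment, which allows up to 0.467 CPM in the shallowest library if 3 counts are taken as the limit.

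**Figure D3:**
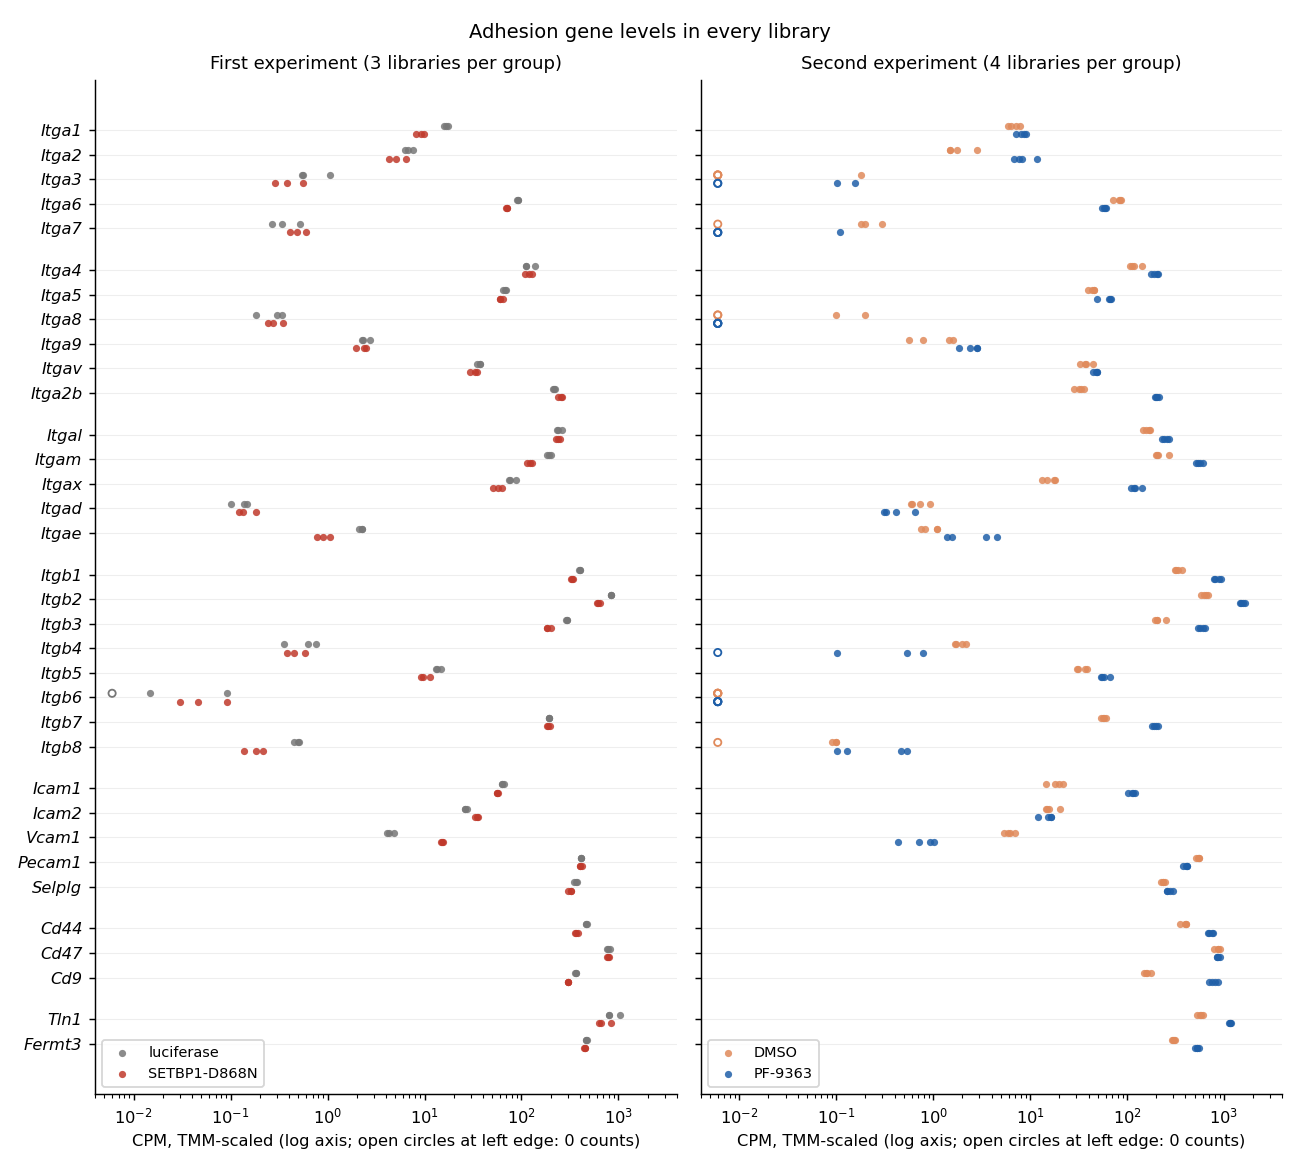
Level of the 34 adhesion genes in CPM, on a log x axis, with the first experiment at left and the second at right; each point is a library, coloured by group, and open circles mark 0 counts. Itgb2 spans 601 to 842 CPM in the 6 libraries of the first experiment, and 574 to 1633 CPM in the 8 of the second, and Vcam1 rises with the mutant and falls under the inhibitor.

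Of the alpha subunits for fibronectin, other RGD ligands and VCAM-1, only Itga2b rose in both comparisons. Itga2b (CD41, at chr11:102453297-102470122, minus strand) is the alpha chain of the platelet fibrinogen receptor and is also made by early progenitors and mast cells. It measured 209, 218 and 223 CPM with luciferase and 264, 240 and 256 CPM with the mutant, a small rise (log2 fold change 0.22, SE 0.037, adjusted p = 4.12e-04) in which the groups did not overlap. It measured 33.4, 28.3, 36.0 and 31.6 CPM with DMSO and 199, 196, 212 and 204 CPM with PF-9363, a 6.26-fold rise (log2 fold change 2.65, SE 0.074, adjusted p = 1.40e-22).

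Itga2b and its only beta partner, Itgb3 (chr11:104608000-104670476, plus strand), moved in opposite directions with the mutant and together with PF-9363. The ratio of Itga2b to Itgb3 per kilobase was 0.800 ± 0.033 with luciferase and 1.44 ± 0.10 with SETBP1-D868N (SD, n = 3). It was 0.166 ± 0.028 with DMSO and 0.376 ± 0.029 with PF-9363 (n = 4), so that it was higher in the treated libraries of both experiments, without overlap. The ratio of Itgav to Itgb3 was 0.0681 ± 0.0021 with luciferase and 0.0941 ± 0.0048 with the mutant, and 0.0984 ± 0.017 with DMSO and 0.0443 ± 0.0017 with PF-9363. Megakaryocyte and platelet markers did not follow Itga2b in the first experiment. There 10 of 11 tested were lower and none was higher (311 to 315 CPM, then 210 to 222 CPM in sum). With PF-9363, 5 of 7 tested were higher and 1 was lower (91.2 to 112 CPM, then 282 to 332 CPM), with Gp6 and Gp9, glycoproteins of platelets, under 1 CPM in every library of that experiment. The part of these cells in the PF-9363 result was not tested.

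The fibronectin receptor chain Itga5 and the vitronectin receptor chain Itgav were called in both comparisons, with small changes. Itga5 went from 67.4 ± 2.9 to 61.4 ± 2.3 CPM with the mutant (adjusted p = 0.0131) and from 43.3 ± 2.8 to 62.3 ± 9.1 CPM with PF-9363 (adjusted p = 1.20e-05). Itgav went from 36.4 ± 1.4 to 32.6 ± 2.7 CPM (adjusted p = 0.0449) and from 37.8 ± 5.1 to 47.2 ± 2.1 CPM (adjusted p = 0.00292), and its groups overlapped in each comparison. The call with the mutant was lost for Itga5 without luciferase replicate 1 (adjusted p = 0.0642), without replicate 3 (0.0560) and under library size alone (0.0801). For Itgav it was lost without luciferase replicate 1 (0.149) or 3 (0.127) and without mutant replicate 1 (0.118) or 2 (0.0845), and also under library size alone (0.136), without robust estimation (0.0546) and with the replicate block (0.0576). With PF-9363 the call of Itgav was lost under library size alone (log2 fold change 0.089, adjusted p = 0.399). Itga4, the alpha chain of the VCAM-1 receptor VLA-4, was 120 ± 15 and 119 ± 10 CPM in the first experiment and rose from 120 ± 16 to 195 ± 15 CPM with PF-9363 (log2 fold change 0.70, adjusted p = 1.84e-08). In the second experiment the gene Cerkl, which overlaps it on the opposite strand, held a count of 18.0 to 27.0% of that of Itga4, against 1.21 to 1.77% in the first. The strand handling of the counting is not given in the sources used here, so the reads of such a pair cannot be told apart.

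Itga9, whose protein binds tenascin and VCAM-1, was scarce and was called only with PF-9363. It measured 0.793, 1.60, 0.562 and 1.45 CPM with DMSO and 2.37, 2.84, 2.80 and 1.84 CPM with PF-9363 (log2 fold change 1.14, SE 0.36, adjusted p = 0.00536), and 2.45 ± 0.26 and 2.27 ± 0.25 CPM in the first experiment. Itga8 stayed at 23 counts or fewer in every library.

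All 5 receptor chains for collagen and laminin were tested with the mutant. Itga1 and Itga6 fell (2 of 5, against 22.7% of all genes) and none rose (against 24.5%). With PF-9363 only 3 were tested, of which Itga2 rose (1 of 3, against 36.6%) and Itga6 fell (1 of 3, against 39.4%). The PF-9363 counts were near the shares of all genes. Itga6, the laminin receptor chain of stem and progenitor cells (CD49f), was the only member to fall in both comparisons, from 91.2 ± 1.1 to 70.2 ± 1.3 CPM (log2 fold change -0.38, adjusted p = 7.41e-07) and from 81.3 ± 6.2 to 58.2 ± 2.7 CPM (log2 fold change -0.48, adjusted p = 1.27e-06). Itga1, a collagen receptor chain, fell from 16.8 ± 0.71 to 9.12 ± 0.82 CPM with the mutant (log2 fold change -0.88, SE 0.068, adjusted p = 8.67e-07). It was 6.86 ± 0.90 CPM with DMSO and 8.25 ± 0.84 CPM with PF-9363, without a call (adjusted p = 0.141). Itga2, the other collagen receptor chain and a neighbour of Itga1 on chromosome 13, measured 1.49, 1.50, 1.78 and 2.81 CPM with DMSO and 6.80, 7.73, 11.7 and 8.24 CPM with PF-9363. That was a 4.44-fold rise (log2 fold change 2.15, SE 0.25, adjusted p = 7.15e-09) without overlap. In the first experiment it was 6.84 ± 0.70 and 5.26 ± 1.1 CPM (adjusted p = 0.0564). The laminin receptor chains Itga3 and Itga7 were at 1.06 CPM or less in every library.

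Of the counter-receptors, Vcam1 had the widest swings. It encodes VCAM-1, the ligand of alpha4 integrins, which is best known on stromal and endothelial cells of the marrow and is also made by macrophages and some myeloid cells. The gene lies at chr3:116109949-116129688 on the minus strand. It measured 4.84, 4.13 and 4.31 CPM with luciferase and 15.1, 15.6 and 14.8 CPM with SETBP1-D868N, a 3.42-fold rise (log2 fold change 1.78, SE 0.070, adjusted p = 7.21e-09). With DMSO it measured 6.25, 6.98, 5.90 and 5.35 CPM and with PF-9363 0.721, 1.03, 0.934 and 0.434 CPM (4 to 8 counts), a 7.94-fold fall (log2 fold change -2.99, SE 0.30, adjusted p = 3.79e-10). Neither pair of groups came close to overlapping. Gm43109, which overlaps the gene on the opposite strand, held a count of 8.47 to 17.5% of that of Vcam1 with DMSO and 0 to 50.0% with PF-9363 (0 to 2 counts), and at most 0.101% in the first experiment. Itga4, which encodes the alpha4 chain that binds VCAM-1, was not called with the mutant and rose with PF-9363.

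The endothelial markers that could be tested mostly moved the same way as Vcam1, while some genes of the same list were at or near 0. Of 10, 6 were tested in the first experiment, with 4 higher and none lower (56.6 to 63.9 CPM with luciferase, 67.1 to 78.0 CPM with the mutant), and 2 in the second, both lower (96.5 to 111 CPM, then 53.5 to 65.9 CPM). Flt1 made up most of these sums. Within this list Cldn5 and Sox17 were at 0 in every library, Emcn was at 0.0151 CPM or less, and Cdh5 at 0.623 CPM or less. Of 10 stromal markers, 2 were tested for the mutant (1 higher) and 3 for PF-9363 (1 higher), with sums of 15.8 to 17.0 and 17.7 to 22.2 CPM, and of 9.12 to 10.9 and 11.5 to 16.2 CPM. Dcn and Lum were at 0 in all 6 libraries of the first experiment, and Cxcl12, Lum, Postn and Prrx1 in all 8 of the second. Monocyte and macrophage markers moved against Vcam1 in both comparisons. The part of any of these cell types in the Vcam1 changes was not tested.

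Icam1, at chr9:21015985-21028817 on the plus strand, encodes ICAM-1, the ligand of LFA-1 and of alphaM-beta2. It went from 63.5 ± 1.5 to 56.3 ± 1.2 CPM with the mutant (log2 fold change -0.17, adjusted p = 8.30e-04). It measured 19.6, 14.5, 21.8 and 18.2 CPM with DMSO and 121, 102, 116 and 111 CPM with PF-9363, a 6.05-fold rise (log2 fold change 2.60, SE 0.096, adjusted p = 4.95e-19). The gene Gm47079, which overlaps it on the opposite strand, held a count of 17.9 to 32.3% of that of Icam1 in the second experiment and at most 0.330% in the first. Icam2, a second LFA-1 ligand that is made constitutively, rose with the mutant from 26.5 ± 0.66 to 34.5 ± 1.1 CPM (log2 fold change 0.38, adjusted p = 1.10e-05). It was 16.4 ± 2.7 and 15.0 ± 2.0 CPM with DMSO and PF-9363, without a call. The 2 ICAM genes thus moved in opposite directions with the mutant.

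Pecam1 (CD31), which binds itself at cell contacts and marks endothelium, platelets and many myeloid cells, was 410 ± 2.2 and 409 ± 9.2 CPM in the first experiment. It fell with PF-9363 from 539 ± 18 to 402 ± 17 CPM (log2 fold change -0.43, adjusted p = 1.56e-07). Selplg, which encodes PSGL-1, went from 363 ± 12 to 317 ± 12 CPM with the mutant (log2 fold change -0.20, adjusted p = 4.29e-04) and from 234 ± 8.9 to 272 ± 18 CPM with PF-9363 (log2 fold change 0.22, adjusted p = 0.00229). The rise with PF-9363 was lost under scaling by library size alone (log2 fold change -0.016).

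Among the surface partners, Cd9 and Cd44 fell with the mutant and rose with PF-9363, and Cd47 was not called in either. Cd9, at chr6:125460266-125494791 on the minus strand, encodes a tetraspanin that sits beside beta1 integrins. It went from 363 ± 5.9 to 303 ± 2.4 CPM with the mutant (log2 fold change -0.26, adjusted p = 3.37e-06). It measured 148, 162, 155 and 176 CPM with DMSO and 703, 747, 812 and 856 CPM with PF-9363, a 4.86-fold rise (log2 fold change 2.28, SE 0.070, adjusted p = 1.47e-21). In the second experiment the opposite-strand gene Gm26728 held a count of 29.1 to 31.9% of that of Cd9 with DMSO and 29.0 to 32.1% with PF-9363, a share that did not separate the groups. In the first experiment that share was at most 0.0444%. Cd44, the hyaluronan receptor, went from 465 ± 3.7 to 369 ± 12 CPM (log2 fold change -0.33, adjusted p = 1.46e-06) and from 388 ± 25 to 726 ± 39 CPM (log2 fold change 0.90, adjusted p = 1.32e-13). Cd47, which signals to SIRP-alpha on phagocytes and was first known as an integrin-associated protein, was 789 ± 21 and 776 ± 13 CPM in the first experiment, 784 to 915 CPM in the DMSO libraries and 839 to 915 CPM in the PF-9363 libraries. Scaling by library size alone put Cd47 lower with PF-9363 (log2 fold change -0.22, adjusted p = 0.00160).

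Tln1 (talin-1) and Fermt3 (kindlin-3), which activate integrins from inside the cell, rose with PF-9363 and were not called with the mutant. Tln1 measured 1033, 795 and 800 CPM with luciferase and 638, 667 and 844 CPM with the mutant, groups that overlapped (adjusted p = 0.254). It measured 529, 605, 572 and 568 CPM with DMSO and 1151, 1120, 1172 and 1153 CPM with PF-9363, a 2.02-fold rise (log2 fold change 1.02, SE 0.059, adjusted p = 3.22e-15). Fermt3 was 467 ± 2.7 and 450 ± 5.3 CPM in the first experiment, where the groups did not overlap but no call was made (adjusted p = 0.0667). It rose from 300 ± 7.7 to 527 ± 19 CPM with PF-9363 (log2 fold change 0.81, adjusted p = 2.23e-13).

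The comparisons share no libraries, so their calls can be set side by side. The mutant and DMSO groups, which both carried SETBP1-D868N, were not at the same levels. Their means were 253 and 32.3 CPM for Itga2b, and 189 and 57.2 CPM for Itgb7. Itgb5 went the other way, at 9.16 to 11.3 CPM and 30.3 to 38.4 CPM. Itga4 was close, at 119 and 120 CPM. Opposite calls therefore do not show a reversal from a common state, which was not tested. Of the 28 members tested in both comparisons, 14 (50.0%) were called in opposite directions, against 34.9% of the 12376 genes tested in both. Of the 14, 13 were lower with SETBP1-D868N and higher with PF-9363 (46.4%, against 16.8% of all genes): Itga5, Itgav, Itgam, Itgax, Itgae, Itgb1, Itgb2, Itgb3, Itgb5, Icam1, Selplg, Cd44 and Cd9. Vcam1 alone was higher and then lower (3.6%, against 18.1%). Itga6 and Itga2b were called in the same direction in both, a class that held 9.05% of all genes, and the other 12 were not called in both. The sizes differed from gene to gene. Icam1 and Cd9, which rose 6.05-fold and 4.86-fold with PF-9363, had fallen by only 0.17 and 0.26 on the log2 scale with the mutant, while Itga1, which fell by 0.88, was not called with PF-9363.

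**Figure D4:**
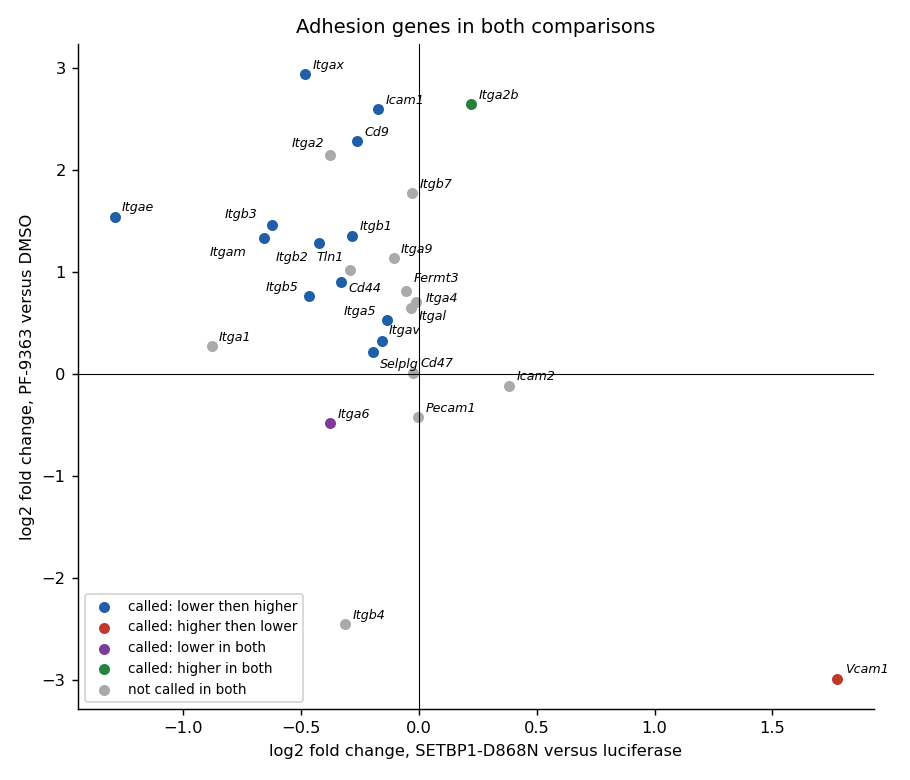
Log2 fold change of the 28 adhesion genes tested in both comparisons, SETBP1-D868N versus luciferase on the x axis and PF-9363 versus DMSO on the y axis; colours give the calls. The 13 genes lower and then higher fill the upper left, and Vcam1 stands alone at the lower right.

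Genes that work with the members were followed as fixed lists, to be read against all genes tested, of which 24.5% were higher and 22.7% lower with the mutant (median log2 fold change 0.0043) and 36.6% higher and 39.4% lower with PF-9363 (median -0.038). With the mutant, the tetraspanins were near these shares in both directions, as were the matrix ligands and the partners of CD44 and CD47 in the number higher. Of 22 genes that activate integrins or link them to actin, 3 were higher and 9 lower of 20 tested with the mutant (median log2 fold change -0.20) and 13 higher and 4 lower of 19 tested with PF-9363 (median 0.62). Actn1, an actin cross-linker, fell from 340 ± 10 to 223 ± 4.8 CPM with the mutant. Zyx, a focal adhesion protein, rose from 113 ± 4.4 to 413 ± 18 CPM with PF-9363. In that comparison Tln2, the second talin, fell from 7.13 ± 1.9 to 1.15 ± 0.39 CPM, against the direction of Tln1, and Rasgrp2, the exchange factor that loads Rap1 in platelets and leukocytes, fell from 158 ± 5.2 to 52.8 ± 5.2 CPM. Of 20 signalling genes downstream of integrins, 2 were higher and 13 lower of 19 tested with the mutant (median -0.22), and 14 higher and 2 lower of 18 tested with PF-9363 (median 0.77). Fgr, a kinase of the SRC family that acts below beta2 integrins in myeloid cells, fell by 0.89 on the log2 scale with the mutant. Src, the founding kinase of that family, rose with PF-9363 by a log2 fold change of 3.76.

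Of 22 matrix ligands, 3 were higher and 6 lower of 16 tested with the mutant (median -0.20), and 7 higher and 2 lower of 11 tested with PF-9363 (median 0.94). Fn1, fibronectin, fell in both, from 187 ± 33 to 71.6 ± 14 CPM and from 98.5 ± 20 to 3.61 ± 0.74 CPM, while the laminin chain Lama5 rose with PF-9363 from 24.5 ± 4.9 to 196 ± 19 CPM. Of 20 further adhesion molecules of the immunoglobulin family, 3 were higher and 9 lower of 18 tested with the mutant (median -0.37), with Jaml and F11r, proteins of leukocyte and cell junctions, each lower by over 1 on the log2 scale (-1.08 and -1.02). With PF-9363, 10 were higher and 4 lower of 14 tested (median 0.76), led by the cell adhesion molecules L1cam and Alcam (log2 fold changes 3.83 and 3.37). Of 21 selectins, their carriers and their glycan enzymes, 8 were higher and 6 lower of 20 tested with the mutant (median -0.027), and 10 higher and 5 lower of 18 tested with PF-9363 (median 0.30). Selp, P-selectin, fell from 11.2 ± 0.23 to 7.99 ± 0.61 CPM with the mutant. Fut4, a fucosyltransferase that helps build selectin ligands, fell with PF-9363 from 12.4 ± 0.30 to 3.64 ± 0.57 CPM, having risen with the mutant from 13.8 ± 0.47 to 17.9 ± 1.0 CPM.

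Of 14 tetraspanins, the family of Cd9, 4 were higher and 3 lower with the mutant (median -0.026), and 10 higher and 2 lower of 13 tested with PF-9363 (median 0.50), with Tspan13 at a log2 fold change of 3.03 and Tspan2 at -3.06. Of 12 partners of CD44 and CD47, 2 were higher and 4 lower of 9 tested with the mutant (median -0.038), and 5 higher and 2 lower of 10 tested with PF-9363 (median 0.30). Sirpa, which encodes the SIRP-alpha receptor for CD47 on myeloid cells, fell from 593 ± 1.2 to 407 ± 7.7 CPM with the mutant and rose from 323 ± 10 to 1210 ± 51 CPM with PF-9363, while Cd47 itself was not called. Values in this and the preceding lists are mean ± SD over 3 libraries (luciferase, SETBP1-D868N) or 4 libraries (DMSO, PF-9363), and each gene named was called. The monocyte and macrophage markers given above moved with Sirpa and Fgr in both comparisons (Fgr rose by 1.77 on the log2 scale with PF-9363, adjusted p = 1.01e-17), and their part in these changes was not tested.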

How the data were processed

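Messenger RNA was counted per gene in 14 libraries. The authors deposited raw counts, whole numbers in 1 table per experiment, with 55367 gene symbols each. STAR and DESeq2, and the builds GRCm38 and mm10, are named per the submitters' processing notes; the counting program, annotation and strand handling are not given in the sources used here. Groups came from the sample titles.

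Everything else was computed here. Each experiment was fitted alone, on all genes, with edgeR 4.0.16 in R 4.3.3: filterByExpr (minimum count 10, minimum total 15), TMM scaling, the robust quasi-likelihood test and Benjamini-Hochberg adjustment over all genes tested, called at an adjusted p under 0.05. All adjusted p-values are from this test. Precision is limited by the lower depth of the second experiment and covers counting and the spread between libraries. Levels per kilobase use the union of exons of GENCODE M21 (GRCm38), as do gene positions. On simulated counts with 200 changed genes, the fit recovered 83.0% of 2-fold changes for the first comparison (15794 genes) and 87.5% for the second (13456 genes). Of its calls there, 7.78% and 7.41% were false. In the data a far larger part of the genes was called (47.2% and 76.0%), so these rates may not carry over. Alternatives were RLE and library-size scaling, 2 other filters, DESeq2 1.42.0, limma-voom (limma 3.58.1), no robust estimation, a replicate block and leaving out each library.

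Members and lists were chosen with earlier results of these data known. Values of every library are given for members called with an absolute log2 fold change of at least 1 in a comparison, or called in both with at least 0.5 in the first. Of each list, the 2 called genes with the largest changes in each direction, at 5 CPM or more in the higher group, could be named. Marker genes may be named with their levels. Some genes that this rule would name are not reported here.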

Additional observations from a re-analysis of the deposited data

Results flagged for a closer look

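In the DMSO group, Itgam measured 270.5 CPM in replicate 4 against 198 to 208 CPM in the other 3 libraries, a gap wide enough to pass Dixon's test for a value apart. It was the only such value among 56 groups of 4 libraries tested, in a test that marks about 0.05 of groups by chance. The PF-9363 libraries measured 517 to 605 CPM.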

How the results depend on the processing

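The number of members called higher with SETBP1-D868N was 3 under all alternatives, and the number called lower ranged from 14 to 18. With PF-9363 it was 21 higher and 4 lower under all alternatives other than library size alone (19 and 6). Scaling by library size alone turned the sign of uncalled values with the mutant: Itga4 (0.038), Itgal (0.016), Itgb7 (0.020), Pecam1 (0.046) and Cd47 (0.025). With PF-9363 it turned Selplg (-0.016) and Cd47 (-0.22, then called), and ended the call of Itgav. Cd47 also turned with no filter beyond 1 count (-0.0081). Leaving out 1 library at a time, log2 fold changes with the mutant ran from -0.076 to 0.097 for Itga4, -0.16 to 0.26 for Itga8, -0.069 to 0.017 for Itgal and -0.025 to 0.0025 for Pecam1, and with PF-9363 from -0.036 to 0.041 for Cd47. Itga2, Itga3 and Fermt3, not called with the mutant, were called lower under some alternatives, with adjusted p down to 1.95e-04, 0.00829 and 0.0353, and Icam2 was called lower with PF-9363 under library size alone (adjusted p = 0.0230). The cause of these changes was not tested. Replicate numbers did not pair the libraries: the deviations of same-numbered libraries correlated at -0.097, -0.037 and -0.087 in the first experiment and between -0.040 and 0.0075 in the second. With the replicate block, the members called lower with the mutant went from 16 to 14 (Itgav and Itgax, adjusted p = 0.0576 and 0.0707) and those with PF-9363 were unchanged in number. Members with few counts (Itga3, Itga7, Itga8, Itgad, Itgb4, Itgb6, Itgb8) are limited by depth.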

Other observations

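The count of a gene on the strand opposite a member differed between the experiments for several members. Gm26728, opposite Cd9, had 1 to 11 counts in the deeper first experiment and 455 to 2375 in the second, and Gm47079, opposite Icam1, had 3 to 12 and 32 to 295. Cerkl, opposite Itga4, had 86 to 135 and 226 to 363. Creb3, opposite Tln1, had a count of 2.76 to 4.17% of that of Tln1 in the first experiment, close to the 3.21 to 5.35% of the second.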
